A study of Homo sapiens with 2 samples.

Results

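Intermediate filament transcripts were followed in the human pancreatic ductal adenocarcinoma line Panc1 by probe sets for keratins, vimentin, nestin and lamins. The genes were chosen by name, with earlier results of these data known: KRT7, KRT8, KRT18, KRT19, KRT80, KRT81, VIM, NES, LMNA and LMNB1. A probe set, a group of short probes read as 1 value, was included when its platform annotation gave exactly 1 gene symbol and that symbol was in the list. This found 20 of the 41097 probe sets with 1 symbol, for 9 of the 10 genes and of 19775 genes in all. KRT81, a hair keratin, had no such probe set and was not analysed here. All 20 symbols matched their current RefSeq gene.

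The arrays compared 2 hygromycin-selected stable populations, Panc1/mock with the vector alone and Panc1/syk-wt given wild-type syk, which encodes a cytoplasmic tyrosine kinase. The series title calls the mock cells drug-resistant. Each population had 1 Affymetrix array, so every value is a single measurement with no replicate error, no test was possible, and population, RNA preparation and array cannot be told apart. Which promoter drives the syk construct is not stated in these sources, and the labels speak of populations rather than clones.

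Intermediate filaments are ropes of coiled-coil proteins that give cells and nuclei mechanical strength. Keratins form them in epithelia as obligate pairs of a type I and a type II chain, so that KRT18 pairs with KRT8 and KRT19 with KRT8 or KRT7 in simple and ductal epithelium. Vimentin is the filament protein of mesenchymal cells and of many carcinoma lines, nestin co-assembles with vimentin in progenitor and dividing cells, and lamins line the inside of the nuclear envelope.

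Promoter sequence is shown for NES, the member with the largest difference, and for VIM and LMNB1 as a cytoplasmic and a nuclear filament gene that also read lower on the syk array. The RefSeq table (GRCh38.p14) held entries for 5 of the 10 genes, 8 starts in all. The stretches are the 250 bases before a RefSeq start, on the gene's strand, and the start used in Panc1 was not measured. Capitals mark matches on either strand to GGGCGG, the GC box bound by Sp1-type factors, or to CCAAT, which did not overlap each other.
NES, minus strand, chr1:156677408-156677657: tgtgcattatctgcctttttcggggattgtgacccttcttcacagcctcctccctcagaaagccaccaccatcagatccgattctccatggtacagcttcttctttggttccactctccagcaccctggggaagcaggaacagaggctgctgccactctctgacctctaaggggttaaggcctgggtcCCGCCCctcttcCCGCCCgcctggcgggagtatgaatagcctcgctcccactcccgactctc
VIM, plus strand, chr10:17227991-17228240: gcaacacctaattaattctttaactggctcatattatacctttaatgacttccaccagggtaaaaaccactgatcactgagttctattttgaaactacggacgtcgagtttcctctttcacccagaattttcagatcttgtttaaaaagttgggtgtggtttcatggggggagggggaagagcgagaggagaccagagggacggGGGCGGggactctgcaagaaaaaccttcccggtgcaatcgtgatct
LMNB1, plus strand, chr5:126776886-126777135: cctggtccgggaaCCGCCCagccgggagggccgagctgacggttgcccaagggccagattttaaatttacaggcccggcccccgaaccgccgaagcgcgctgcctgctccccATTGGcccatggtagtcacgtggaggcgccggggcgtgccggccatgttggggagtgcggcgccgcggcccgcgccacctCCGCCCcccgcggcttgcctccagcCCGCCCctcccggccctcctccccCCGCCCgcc
The NES stretch held 2 GC boxes, the VIM stretch 1, and the LMNB1 stretch 4 GC boxes and 1 CCAAT. The other LMNB1 start in the table, chr5:126776373-126776622, held neither. GGGCGG occurred in 42.6% and CCAAT in 32.0% of all 35116 stretches of this length. TATAAA (10.7% of all), the AP-1 motif TGANTCA (6.57%) and the E box CAGGTG (17.5%) had no match in any of the 3 stretches printed. Of the stretches not printed, that of KRT8 matched none of the 5 motifs. The 3 LMNA stretches held 1, 1 and 2 GC boxes, and 1 of them also held a CCAAT and another a CAGGTG. KRT8 and LMNA too read lower on the syk array. A match is a run of letters and no measured binding.

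The arrays had nearly equal medians (4.26 mock, 4.24 syk, log2 intensity). The brightest SYK probe set read 4.27 on mock and 4.73 on syk, both under 4.77, the highest signal of 27 bacterial control probe sets, so SYK gave no clear check of the labels. The other SYK probe sets, also under 4.77 on both arrays, differed by -0.27, -0.07 and -0.09, syk minus mock. "The syk array" below means the array labelled so. A value at or below 4.77 is called dim, and probe sets dim on both arrays get no fold. That level rests on 1 control, the other 26 reading at most 3.61, so values between 3.61 and 4.77, those of the brightest SYK probe set included, are dim by that 1 control alone. Markers of duct cells were mixed: of 6 with a probe set, EPCAM (6.77 mock, 7.08 syk), SOX9 (11.0 and 11.4) and MUC1 (7.31 and 6.27, 2.06-fold lower on syk) were above 4.77 on both arrays. SLC4A4 was dim on mock and above it on syk (3.35 and 5.63, at least 1.83-fold higher). CFTR (3.39 on both arrays) and SPP1 (3.80 and 4.05) were dim. Of the marker lists for other cells, all genes with a probe set were dim on both arrays for acinar (5 genes), islet (4), endothelial (4), leukocyte (3) and neural cells (2). Of 8 fibroblast and stellate genes 5 were dim on both arrays, but COL1A1 read 11.2 on mock and 10.1 on syk, THY1 5.16 and 5.21, and ACTA2 5.18 and 4.44. The summed intensity of all 8, most of it from COL1A1, was 11.2 and 10.2 on the log2 scale. The part of these markers in the results was not tested.

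Most of the member genes measured read lower in the population labelled syk. Of the 9 measured genes, each represented by its brightest probe set, 8 were below 0 on the log2 difference syk minus mock. NES (3.46-fold) and KRT19 (2.72-fold) were at least 2-fold lower, and none was at least 2-fold higher. The median over the 9 genes was -0.66, against 0.01 over the 12814 genes past the signal filter (a mean of both arrays of at least 4.25, the 50th percentile of probe sets), of which 47.8% were below 0. In that background the share at least 2-fold lower was 3.65%, and the share at least 2-fold higher was 3.61%. All 9 genes passed the filter. The 8 below 0 include KRT18, at only -0.23, and KRT7, whose sign depended on the probe set (-0.49 and 0.16). Of the other intermediate filament proteins past the filter, given below, 1 was below 0 and 4 were above. The genes were chosen with earlier results of these data known, so their contrast with all genes is not independent of these data.

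By probe set, 15 of the 20 were below 0, 4 above 0 and 1 exactly 0, with a median of -0.44. Over all 54675 probe sets the median was 0, with 46.3% below 0 and 4.004% exactly 0. The 2 probe sets at least 2-fold lower stand against a background of 1.82% of all probe sets (higher: 1.72%). Of the 20 probe sets 14 were above 4.77 on both arrays, and of these 12 were below 0, with a median of -0.57. Among the 22033 such probe sets on the array, 49.2% were below 0, 3.18% at least 2-fold lower and 2.6% higher by that much. The other 6 member probe sets were dim on both arrays, 4 of them with a value above 3.61 on at least 1 array.

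**Figure D1:**
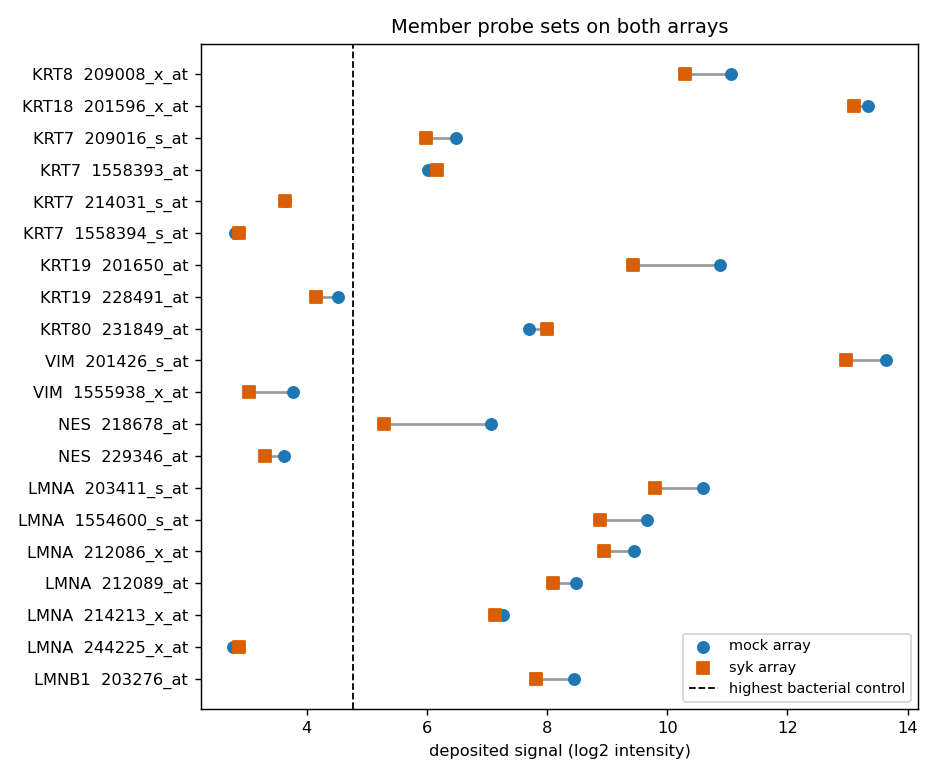
Deposited signal (log2 intensity) of the 20 member probe sets, with the mock array as circles and the syk array as squares, joined by a line, and the highest bacterial control (4.77) dashed. The square lies left of the circle for most probe sets above the dashed line, with the longest lines at NES 218678_at (7.08 to 5.29) and KRT19 201650_at (10.9 to 9.44).

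The type II keratin KRT8 and its type I partner KRT18 make up the basic filament of simple epithelia. KRT8 read 11.1 on mock and 10.3 on syk. KRT18 read 13.3 on mock and 13.1 on syk. Both were far above the controls on both arrays, but they did not differ to the same extent.

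The KRT8 difference was -0.76 (1.69-fold lower) and the KRT18 difference -0.23 (1.17-fold lower), a gap of -0.53 between the partners. The KRT18 value was like that of the ACTB and GAPDH 3' control probe sets, at -0.25 and -0.23. Probe sets of the same gene differed among themselves with a pooled SD of 0.35 (6028 genes), a guide to probe behaviour that covers no variation between cultures. Against it the KRT18 difference was small. The gap of -0.53 compares 1 probe set of each gene, so it carries the probe behaviour of both. Each of the partners had 1 probe set, and both probe sets carry the suffix _x, which marks probes that may also bind other transcripts. Keratin 8 and 18 have many processed pseudogenes, so both values are uncertain as readings of 1 gene. KRT18 lies next to KRT8 in the RefSeq gene order on chromosome 12, although the other type I keratins lie on chromosome 17.

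KRT19 is the smallest keratin and a marker of pancreatic duct cells. Its bright probe set, 201650_at, read 10.9 on mock and 9.44 on syk, a difference of -1.45. Its other probe set, 228491_at, was dim on both arrays, at 4.53 and 4.16. Only the bright probe set therefore carries the 2.72-fold value. With the mean over both probe sets KRT19 differed by -0.91 and was no longer 2-fold lower. Among the 2145 probe sets as bright as this (a mean of at least 10), 1.96% were at least 2-fold lower, while 0.746% were higher by that much. The KRT19 difference minus that of KRT18 was -1.22, and minus that of KRT8 -0.69.

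KRT7, the type II partner of KRT19 in ducts, had 4 probe sets that went different ways. Probe set 209016_s_at read 6.49 on mock and 5.99 on syk, a difference of -0.49. Probe set 1558393_at read 6.01 and 6.17, a difference of 0.16. The remaining pair was dim on both arrays, 214031_s_at at 3.64 on each and 1558394_s_at at 2.82 and 2.87. The sign of KRT7 thus depends on the probe set, and its mean over the 4 was -0.07. KRT80, a type II keratin of differentiating epithelium, was the 1 member gene above 0. It read 7.71 on mock and 7.999 on syk by its only probe set, a difference of 0.29 (1.22-fold). That is less than the spread of 0.35 between probe sets of a gene. KRT80 and KRT7 are neighbours in the gene order.

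**Figure D2:**
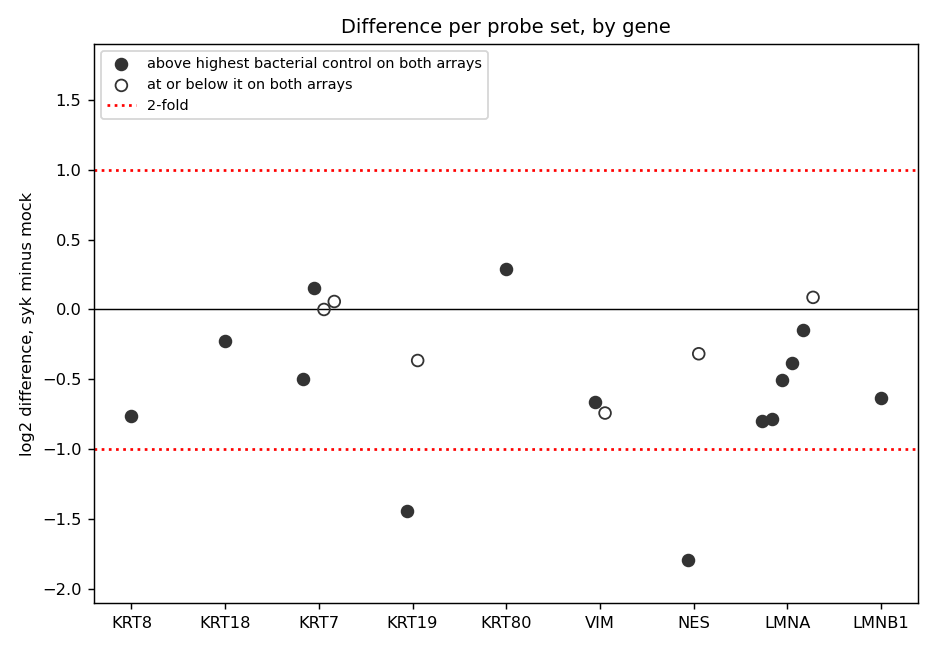
Log2 difference, syk minus mock, of each member probe set by gene, with filled points above the highest bacterial control on both arrays, open points at or below it, and dotted lines at 2-fold. NES (-1.79) and KRT19 (-1.45) each have 1 filled point past the lower line, the 5 filled LMNA points lie between -0.80 and -0.14, and KRT80 (0.29) and 1 KRT7 probe set (0.16) are the filled points above 0.

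VIM encodes vimentin, the type III filament protein used as a mesenchymal marker. Its bright probe set, 201426_s_at, read 13.6 on mock and 12.98 on syk. The difference was -0.66, or 1.58-fold lower. Probe set 1555938_x_at was dim on both arrays, at 3.78 and 3.04, so its difference of -0.74 adds little. Vimentin and the epithelial KRT8 were thus both lower on the syk array, and by like amounts. At these intensities 2-fold differences were rare, as the 1.96% above shows.

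NES encodes nestin, a type IV protein that needs a partner such as vimentin to form filaments. Probe set 218678_at read 7.08 on mock and 5.29 on syk, the largest difference of any member at -1.79. Probe set 229346_at was dim on both arrays, at 3.62 and 3.31. The NES difference minus that of VIM was -1.13. With the mean over both probe sets NES was at -1.05, still at least 2-fold lower, and at the 75th percentile filter the gene was too dim to be counted. Probe sets with a mean of 5 to 7, the range of the brighter NES probe set, were at least 2-fold lower in 4.39% of cases and higher in 4.17%.

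LMNA encodes the A-type lamins A and C by splicing, and its 6 probe sets give the most detailed reading of any member. The brightest, 203411_s_at, read 10.6 on mock and 9.81 on syk, a difference of -0.80 (1.74-fold lower). Next, 1554600_s_at read 9.66 and 8.88, a difference of -0.78. These were the largest LMNA differences.

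Probe set 212086_x_at read 9.45 on mock and 8.95 on syk (-0.51). Probe set 212089_at read 8.49 and 8.10 (-0.39). Probe set 214213_x_at read 7.27 and 7.13 (-0.14). All 5 probe sets above 4.77 were lower on the syk array, with a mean of -0.52 and an SD of 0.28 between probe sets (n = 5 probe sets on the same 2 arrays, no replicates of the populations). The differences were smaller in the dimmer sets. The sixth, 244225_x_at, was dim on both arrays, at 2.78 and 2.87. Which of these probe sets read lamin A, lamin C or both was not analysed here.

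LMNB1 encodes lamin B1, a B-type lamin that stays anchored to the membrane by its farnesyl group. It read 8.45 on mock and 7.82 on syk by 1 probe set, a difference of -0.63 (1.55-fold lower). The LMNA difference minus that of LMNB1 was -0.16. LMNB2, the other B-type lamin, read 7.40 on mock and 7.64 on syk, a difference of 0.24. The B-type lamins therefore had opposite signs, the LMNB2 difference being smaller than the probe set spread of 0.35.

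**Figure D3:**
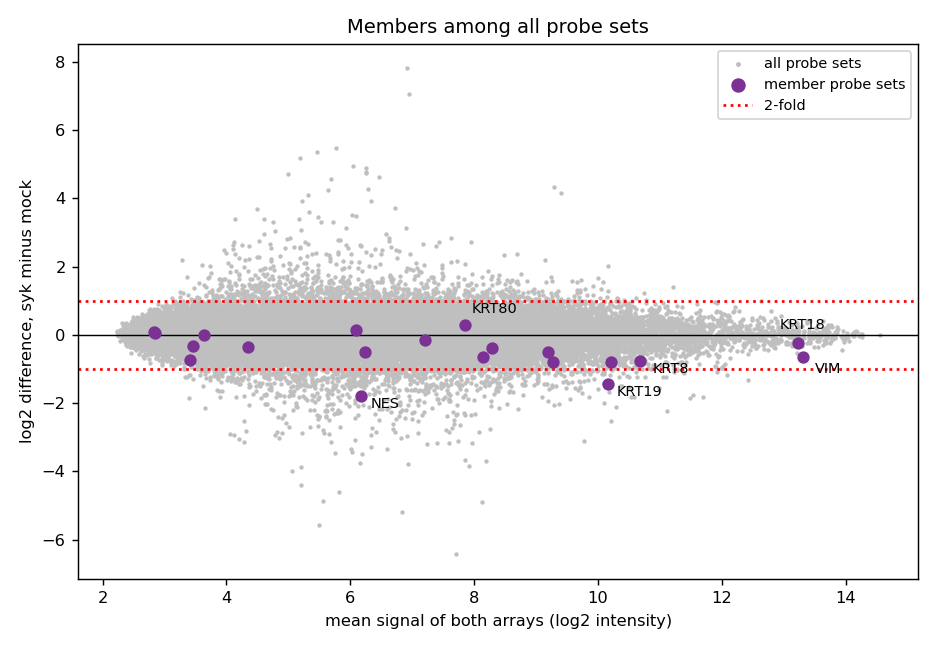
Log2 difference, syk minus mock, against the mean signal of both arrays for all 54675 probe sets (grey) and the 20 member probe sets (purple), with dotted lines at 2-fold. VIM and KRT18 lie at the bright end, where the grey cloud is narrow, and NES and KRT19 lie below the lower line.

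A measure of RNA integrity and labelling also differed between the arrays. For ACTB, the 3' control probe set exceeded the 5' one by a log2 value of 1.95 on mock and 2.37 on syk, and for GAPDH by 0.19 and 0.32. The ACTB probe sets themselves were lower on the syk array by -0.25 at the 3' end, -0.43 in the middle and -0.67 at the 5' end. For GAPDH these values were -0.23, -0.19 and -0.36. The ACTB 5' value was the largest of these control differences. The differences of KRT8 (-0.76), VIM (-0.66) and LMNB1 (-0.63) by their brightest probe sets were of the same order as it. So were those of the LMNA probe sets 203411_s_at (-0.80), 1554600_s_at (-0.78) and 212086_x_at (-0.51). The remaining LMNA probe sets lay between -0.39 and 0.09. The part of this 3' to 5' gap in the member differences was not tested.

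Among the other keratins, most of the epidermal and hair types were dim. Of 26 further type I keratins listed, 21 had a probe set with 1 symbol, and 19 of these were dim on both arrays. Of 22 further type II keratins listed, 17 had such a probe set, and all 17 were dim on both arrays. The rest were not measured here. The exceptions were KRT15 and KRT10. KRT15, a type I keratin of basal epithelial cells, read 7.93 on mock and 5.74 on syk by its only probe set, a difference of -2.20 (4.59-fold lower). KRT15 is the neighbour of KRT19 in the gene order on chromosome 17. The measured keratins at least 2-fold lower by their brightest probe sets were thus adjacent genes. KRT9, on the other side of KRT19, was dim on both arrays (3.87 and 3.92).

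KRT10, a type I keratin of differentiated epidermis, read 9.85 on mock and 10.1 on syk (0.22). KRT32, which also passed the filter, was dim at 4.69 on both arrays. The type II keratins past the filter were dim as well: KRT74 differed by -0.23, KRT5 by 0.10, KRT85 by -0.03, and KRT75 and KRT83 by 0. The basal keratin partners KRT5 (4.40 and 4.50) and KRT14 (3.31 and 3.12) were dim, KRT5 by the highest control alone.

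Of 11 other intermediate filament proteins 5 passed the filter, 0 were at least 2-fold lower and 0 higher, with a median of 0.21. SYNM, which encodes synemin, a linker filament that binds vimentin and desmin, read 9.47 on mock and 8.93 on syk (-0.54). The lens filament gene BFSP1 read 6.53 and 7.18 (0.65). Peripherin, PRPH, read 5.65 and 5.85 (0.21). The neurofilament genes NEFL, NEFM and NEFH and the astrocyte filament GFAP were dim on both arrays. Synemin, like vimentin and nestin, read lower on the syk array, and the other 3 above 4.77 on both arrays (BFSP1, LMNB2 and PRPH) read higher.

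**Figure D4:**
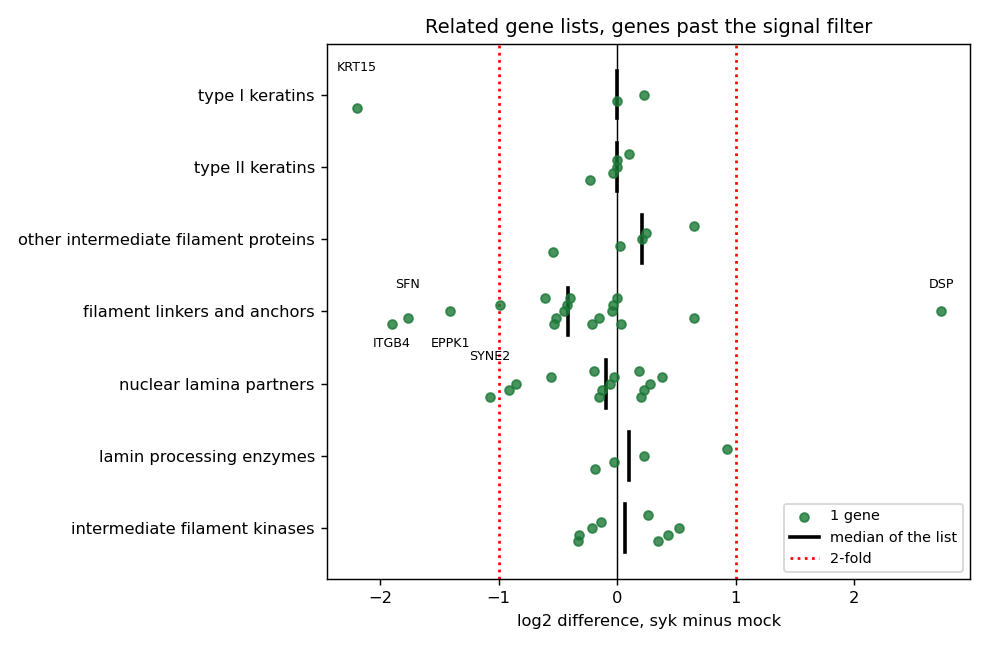
Log2 difference, syk minus mock, of the genes past the signal filter in 7 related lists (1 point a gene, spread vertically for legibility), with the median of each list as a black bar and dotted lines at 2-fold. The linkers and anchors have the lowest median (-0.41) and hold both ITGB4 (-1.90) and DSP (2.73), and KRT15 (-2.20) stands alone among the type I keratins.

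Proteins that tie filaments to junctions and to each other were mostly lower by their brightest probe sets, with a large exception. Of 18 linkers and anchors past the filter 14 were below 0, MACF1 and ITGA6 by only -0.04 each. At least 2-fold, 3 were lower and 1 was higher, and the median was -0.41. Using only _at probe sets, 1 was lower and 2 were higher, with a median of -0.08, and with the mean or the median over probe sets 1 was lower and 1 higher, with medians of -0.25 and -0.23. DSP, desmoplakin, which anchors keratin filaments at desmosomes, read 6.07 on mock and 8.80 on syk (6.64-fold higher). ITGB4, the integrin that holds keratins at hemidesmosomes through plectin, read 7.50 and 5.60 (3.73-fold lower). Its mean over 5 probe sets was -0.65, no longer 2-fold lower.

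SFN, a 14-3-3 protein that binds phosphorylated keratins, read 12.4 on mock and 10.7 on syk (3.40-fold lower). EPPK1, epiplakin, read 5.29 on mock and was dim on syk (3.88). Its fold against 4.77 was at least 1.43, so its place among the genes 2-fold lower rests on a dim value. HSPB1, a small heat shock protein that binds filaments, was named after its value was seen: it read 11.8 and 10.8, a difference of -0.99, just under 2-fold. By their brightest probe sets DSP and ITGB4 therefore had opposite signs, which rests on 1 desmosomal and 1 hemidesmosomal gene. PLEC, which encodes plectin, differed by -0.51 and the integrin ITGA6 by -0.04, both far less than ITGB4. DST, given below, had probe sets of both signs. Of other junction linkers, JUP (-0.43), PPL (-0.45) and EVPL (-0.53) were below 0 and PKP3 (0.65) above.

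DST, which encodes the plakin dystonin in several isoforms, was also named after its values were seen, since its probe sets parted. Its brightest probe set, 215016_x_at, read 10.4 on mock and 10.002 on syk (-0.40). Probe set 204455_at read 5.63 and 7.89, a difference of 2.26, and 216918_s_at read 6.30 and 7.21 (0.91). Probe set 232098_at read 6.53 and 5.83 (-0.70). DST is therefore not described by 1 value.

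Nuclear lamina partners were spread around 0. Of 14 past the filter 9 were below 0, 1 was at least 2-fold lower and 0 higher, with a median of -0.10. SYNE2, a nesprin that links the nucleus to the cytoskeleton, read 7.07 on mock and 6.001 on syk (2.10-fold lower), with its other 4 probe sets dim on both arrays. NRM (nurim, an inner nuclear membrane protein) read 8.48 and 7.56 (1.89-fold lower). The lamin B receptor, LBR, read 9.71 and 8.86 (1.81-fold lower). SUN1, which binds nesprins across the envelope, read 10.3 and 9.78 (-0.56). Over its 4 probe sets the SUN1 difference was -0.24 in the mean and -0.10 in the median.

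Of 4 lamin processing enzymes past the filter none passed 2-fold. FNTA, the farnesyltransferase alpha subunit that acts on B-type lamins and prelamin A, read 9.74 on mock and 10.7 on syk (1.89-fold higher). The carboxyl methyltransferase ICMT differed by 0.23 (0.95 in the median over its 3 probe sets), the protease RCE1 by -0.19 and ZMPSTE24, which cleaves prelamin A, by -0.03. Kinases that phosphorylate intermediate filaments had 0 of 8 past 2-fold, with 4 below 0 and 4 above, and a median of 0.06. Among those above 0, the mitotic kinases AURKB, PLK1 and CDK1 were at 0.52, 0.43 and 0.34 by their brightest probe sets. The 2 AURKB probe sets had opposite signs (0.52 and -0.11), and the 4 of CDK1 ran from -0.09 to 0.35. Over all 7 lists 5 of 57 genes were at least 2-fold lower and 1 higher, with a median of -0.04, beside the 3.65% and 3.61% given above.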

How the data were processed

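Each of 54675 probe sets has 1 deposited value on each of the 2 arrays. The authors' values are RMA output per the submitters' processing notes, with no version or settings given, and were taken as log2 intensities because the deposited numbers run from 2.14 to 14.6. RMA compresses differences between dim probe sets. No detection calls were used. Gene names came from the platform annotation, in which 41097 probe sets had 1 symbol and 1801 several, with 11777 not named. No probe set with several symbols held a member.

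The difference syk minus mock was computed with Python 3.11.15 and pandas 2.3.3. A gene took its probe set with the highest mean. Genes entered counts at a mean of at least 4.25, and an absolute log2 difference of 1 was counted as 2-fold. With 1 array per population there are no p-values, standard errors or intervals, and the number of arrays limits the precision. The calculation was tested on simulated data with planted changes past 2-fold, a check of the code and not of the differences reported here. Genes named from the related lists are the 4 with the largest absolute difference per list, all past 2-fold, and those marked in the text, except 1 kinase that is not reported here. The list genes KRT9, KRT14, KRT83, GFAP, NEFL, NEFM, NEFH, JUP, PPL, EVPL, PKP3, PLEC, ITGA6 and MACF1 were named after their values were seen. The members and lists were chosen with earlier results of these data known. Alternatives were array centring, a loess trend (statsmodels 0.14.6, span 0.2), the floor at 4.77, other probe set summaries and other filters. Promoter stretches came from RefSeq (GRCh38.p14), without the bases after the start.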

Additional observations from a re-analysis of the deposited data

How the results depend on the processing

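No paired analysis was possible because each population had 1 array. The signs of the member genes held under all 9 alternatives wherever a gene had a value, except that KRT7 turned to 0.16 with probe sets ending in _at alone, where KRT8, KRT18 and VIM have none. The count of member genes at least 2-fold lower was 1 in place of 2 with the mean and with the median over probe sets (NES alone) and at the 75th percentile filter (KRT19 alone). The member gene median was -0.51 with _at probe sets alone, and the member probe set median -0.31 with the floor. For the 7 related lists together the count lower was 2 in place of 5 with the mean, with the median, with _at probe sets alone and at the 75th percentile filter, and the count higher was 2 in place of 1 with _at probe sets alone. Of these the linkers and anchors had 1 lower and a median of -0.31 at the 75th percentile filter. The cause was not tested. A single gene's value was taken as moved past 0.35, the spread between probe sets of a gene. Of 298 gene values under the alternatives 17 moved and 0 reversed past 2-fold. Signal near the controls limits KRT7, NES and the dimmer probe sets.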

Other observations

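Probe sets annotated to pseudogenes of the member keratins were read beside the genes. Of 3 such probe sets 2 were above 4.77 on an array, both for KRT8P12, a KRT8 pseudogene. Probe set 222060_at read 5.29 on mock and 5.12 on syk, a difference of -0.17. Probe set 230116_at read 5.41 and 4.69, a difference of -0.73, with its syk value dim. The KRT19P2 probe set was dim on both arrays, at 3.66 and 3.94.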
